A study of Homo sapiens with 15 samples.

Results

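The genes described here are 51 genes spread along the long arm of human chromosome 8 (8q), from TGS1, whose annotated start is at position 55773142, to ASAP1, which ends at 130443660 (GENCODE 29 on GRCh38, a span of 74.7 Mb). They were taken by symbol from the deposited expression table, and 48 of the 51 reached 1 TPM, a transcript level scaled for gene length and library size, in at least 3 of the 15 libraries and were tested, among 14881 tested genes of 56623 symbols. The list was drawn up with results of the IDH2R172K line in view, so every value of a member in a comparison that holds IDH2R172K libraries is given as a description, without a p-value. All 51 symbols lie on 8q in the annotation, 50 as protein-coding genes and PVT1 as a long noncoding RNA.

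The samples were RNA libraries of TF-1, an erythroleukaemia line of human origin whose growth normally needs a cytokine such as GM-CSF, and of sister lines into which base editing had put 1 IDH1 or IDH2 mutation. There were 3 libraries each of IDH2R172K, IDH2R140Q, IDH2R140W, IDH1R132H and Parental cells. The 4 edited lines grew without GM-CSF and Parental cells with 2 ng/ml, so a difference from Parental can come with genotype or medium, which cannot be told apart, but among edited lines the medium was the same. The labels do not say whether a line is one clone or a pool, or that its libraries are separate cultures, so the p-values reflect no more than library-to-library spread, part of which may be technical.

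IDH1 and IDH2 make 2-oxoglutarate, and the mutant enzymes make 2-hydroxyglutarate instead, which inhibits dioxygenases that demethylate DNA and histones. The long arm of chromosome 8 carries MYC and many genes of growth, repair and protein synthesis, and gain of chromosome 8 is a recurrent change in myeloid leukaemia. Genes along one chromosome arm have no shared function, but their transcripts tend to move by similar amounts when the number of copies of the arm changes. No DNA was measured, and copy number was not tested here.

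Each library lay closest to one of its own group, with Pearson's r between 0.97 and 0.99 over genes, which are not independent. Ribosomal protein genes took 20.2% of the TPM in IDH2R140W replicate 3 and 19.3% in Parental replicate 2, against 16.7% and 17.0% in the other IDH2R140W libraries and 15.4% and 16.4% in the other Parental libraries. Of 10 markers of TF-1, 8 reached 1 TPM in every group, and GATA1 and CSF2RA, which define the erythroid and GM-CSF-dependent state, were listed at 0 in all 15 libraries. TF-1 is known to express both, and a listed 0 in a TPM table can be a failed estimate, so these zeros are not read as absence. Differences below are on the log2(TPM + 1) scale, and those called relative have the median over all tested genes taken off, which was 0.13 in IDH2R172K, 0.23 in IDH2R140Q, 0.03 in IDH2R140W and 0.16 in IDH1R132H, each minus Parental. A gene was called where its limma Benjamini-Hochberg adjusted p was under 0.05, with no minimum fold.

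In IDH2R172K cells the 8q genes stood lower than in Parental cells, relative to the median gene, along most of the arm. The genes from 75 to 80 Mb and from 130 to 135 Mb lay near the median gene against Parental, at relative medians of -0.049 and -0.011. Against the mean of the other 3 edited lines, these stretches stood at -0.39 and -0.37. The median relative difference from Parental over the 48 members was -0.53, a ratio of 0.69, and 44 of the 48 lay below the median gene. Their interquartile range ran from -0.87 to -0.33. The call rule gave 25 members lower, against a background of 13.5% of all tested genes, and 1 higher, PVT1, against a background of 25.5%. These counts describe the list and are not read further, since the list was chosen on this contrast. In 24 members all 3 IDH2R172K libraries lay below all 3 Parental libraries, and in PVT1 all lay above; on other chromosomes these shares were 16.3% and 33.8% of genes. With a minimum of 2-fold, 4 members were called lower (E2F5, RMDN1, CPNE3 and ATP6V1C1) and 0 higher, beside backgrounds of 2.96% and 6.36%. In bulk RNA, fewer cells with a gene's transcript and less transcript per cell cannot be told apart.

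The other 3 lines gave other values. The median relative difference of the members from Parental was -0.40 in IDH2R140Q, -0.06 in IDH2R140W and -0.04 in IDH1R132H. In IDH2R140Q 14 members fell and 5 rose, against a background of 11.1% and 33.3% of all genes. The rises include ZC2HC1A, which passed the filter on low values only through the IDH2R140Q libraries and so had to be higher there. In IDH2R140W 9 fell and 6 rose, against 10.7% and 13.3%, and in IDH1R132H 7 fell and 11 rose, against 13.7% and 30.1%. With the 2-fold minimum, 2 members fell and 2 rose, ZC2HC1A again among them, in IDH2R140Q (backgrounds 2.47% and 7.56%), 1 fell and 0 rose in IDH2R140W (2.1% and 2.68%), and 1 fell and 1 rose in IDH1R132H (3.09% and 7.74%). These 3 comparisons share the Parental libraries with each other and with the IDH2R172K comparison. With median-ratio scaling, the members split 33 lower to 3 higher in IDH2R140Q, against 20.6% and 19.7% of all genes, and 14 lower to 9 higher in IDH1R132H, against 21.4% and 21.9%. Without IDH2R140W replicate 3 and Parental replicate 2, chosen after the data were seen, the members called lower numbered 36 in IDH2R172K, 22 in IDH2R140Q, 15 in IDH2R140W and 9 in IDH1R132H, beside backgrounds of 16.7%, 13.2%, 12.5% and 16.2%. Of the 6 rises in IDH2R140W, 2 were called when Parental replicate 3 was left out.

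The medium does not enter a comparison among the edited lines. Set against the mean of the other 3 edited lines, the members of IDH2R172K had a median relative difference of -0.44, a ratio of 0.74, and 45 of 48 lay below the median gene. The call rule gave 31 members lower and 1 higher, PVT1, beside backgrounds of 16.5% and 14.1%. With the 2-fold minimum 1 was lower and 1 higher, beside 2.26% and 2.51%. Per library, the median of the members relative to the Parental mean was -0.57, -0.52 and -0.54 in IDH2R172K, and -0.39, -0.47 and -0.37 in IDH2R140Q. It was -0.02, -0.05 and -0.14 in IDH2R140W, -0.07, -0.00 and -0.09 in IDH1R132H, and 0.02, -0.05 and 0.00 in Parental. All 6 libraries of IDH2R172K and IDH2R140Q lay below the 9 others, and the ranges of IDH2R140W, IDH1R132H and Parental overlapped.

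**Figure D1:**
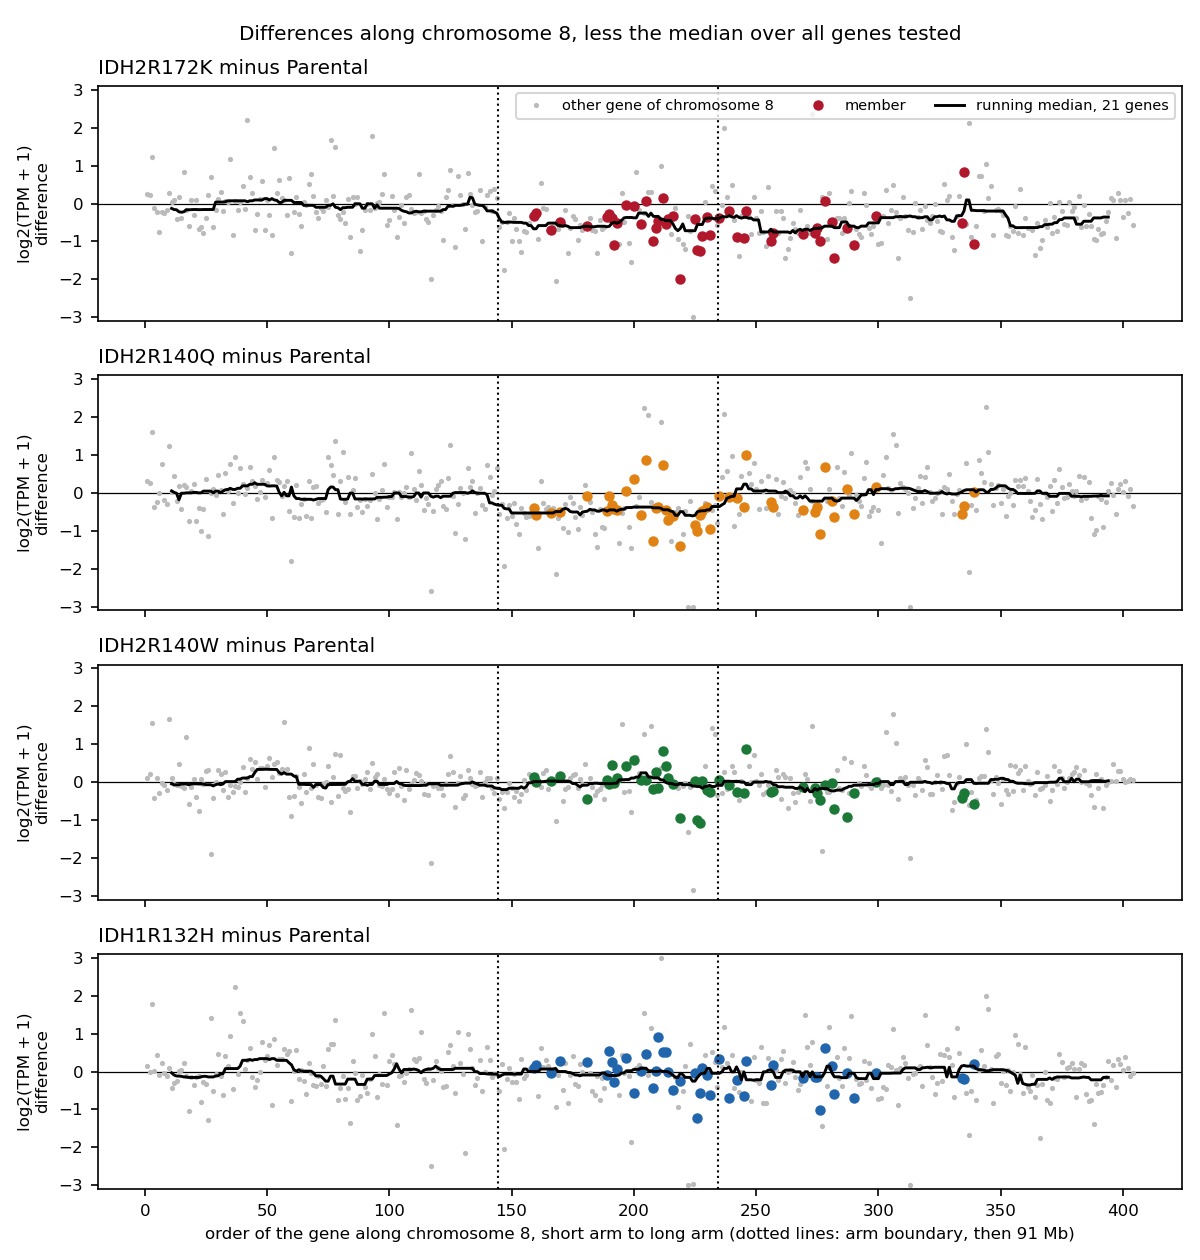
Relative log2(TPM + 1) difference from Parental of each tested gene of chromosome 8, in order from the short to the long arm, in IDH2R172K, IDH2R140Q, IDH2R140W and IDH1R132H; coloured points are members, grey points other genes, the line is the running median over 21 genes, and points beyond 3 or -3 are drawn at the edge. In IDH2R172K the line lies below 0 over most of the long arm, and in IDH2R140Q it returns to 0 near 91 Mb.

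The rest of 8q was examined beside the list, although the arm itself was picked with these results known. There were 212 tested 8q genes outside the list, and in IDH2R172K their median relative difference was -0.49, with 167 of them (78.8%) below the median gene. Of these, 89 were called lower and 17 higher by the limma test, against the same backgrounds of 13.5% and 25.5%. On the short arm, the 144 tested genes had a median of -0.06, with 20 lower and 27 higher, and 12128 genes of other chromosomes had a median of 0.01. Against the other 3 edited lines the medians were -0.40 on 8q outside the list and -0.06 on 8p. The 3 IDH2R172K libraries gave -0.46, -0.46 and -0.47 for the 8q genes outside the list.

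The unlisted genes between TGS1 and ASAP1 with the highest levels encode ribosomal proteins. RPL7, of the large subunit, had 1375, 1391 and 1332 TPM in IDH2R172K and 1226, 1207 and 1210 TPM in IDH2R140Q. It had 2702, 2737 and 2925 TPM in IDH2R140W, 1969, 1883 and 1861 TPM in IDH1R132H, and 2368, 2886 and 2574 TPM in Parental. The IDH2R172K and IDH2R140Q libraries lay below all others, at differences from Parental of -0.93 and -1.10 (SE 0.06 each, limma adjusted p 9.23e-09 in IDH2R140Q). RPS20, of the small subunit, averaged 1452 ± 16.0 TPM in IDH2R172K and 1088 ± 26.5 TPM in IDH2R140Q, against 2560 ± 394 TPM in Parental (SD, n = 3 each). RPL30 averaged 2049 ± 57.2 TPM in IDH2R172K and 2537 ± 44.0 TPM in IDH2R140Q, against 3217 ± 399 TPM in Parental (SD, n = 3 each). Ribosomal protein genes have near-identical copies elsewhere in the genome, so their counts may be split. Their share of the TPM moved with the libraries named above. Over all chromosomes that share was 13.7%, 13.6% and 13.45% in IDH2R172K and 12.9%, 12.7% and 12.8% in IDH2R140Q. It was 14.2%, 13.8% and 13.9% in IDH1R132H, and 15.4% in the lowest Parental library. IDH1R132H had a share near that of IDH2R172K. Relative to the median gene, RPL7 stood at -0.61 in IDH1R132H and -1.06 in IDH2R172K. RPS20 stood at -0.64 and -0.94 in these lines, and RPL30 at -0.23 and -0.78. Whether RPL7, RPS20 and RPL30 fell by more than ribosomal protein genes as a whole was not tested.

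Beyond ASAP1 the highest levels were those of RPL8, EEF1D and LY6E. RPL8, of the large ribosomal subunit, averaged 3283 ± 147 TPM in IDH2R172K against 5640 ± 251 TPM in Parental (SD, n = 3 each), a difference of -0.78 on the log2 scale (SE 0.05). RPL8 is part of the ribosomal protein share given above, which was lower in IDH2R172K than in Parental. EEF1D, a subunit of the elongation factor that recharges eEF1A, had 518, 516 and 550 TPM in IDH2R172K, against 771, 900.5 and 807 TPM in Parental, a difference of -0.64 (SE 0.06). LY6E, a GPI-anchored surface protein, went in different directions in the lines. It averaged 447 ± 14.9 TPM in IDH2R172K, 826 ± 22.0 in IDH2R140Q, 737 ± 24.3 in IDH2R140W, 930 ± 3.06 in IDH1R132H and 533.5 ± 11.1 in Parental (SD, n = 3 each). LY6E was called lower in IDH2R172K and higher in the other 3 lines against Parental.

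**Figure D2:**
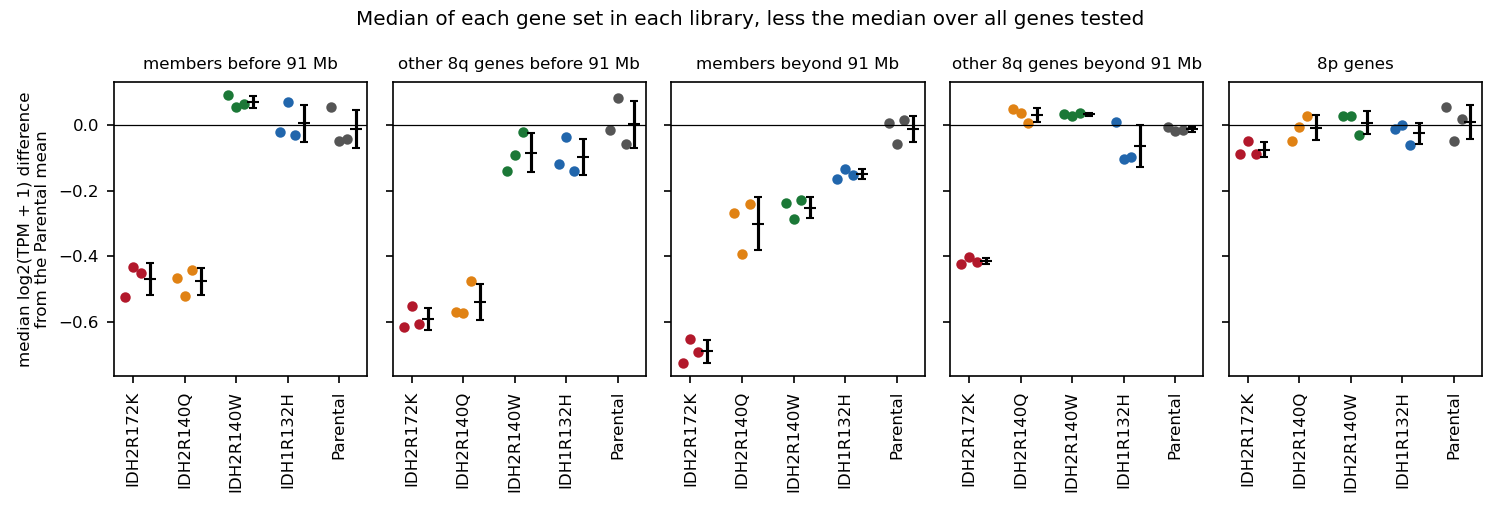
Median relative log2(TPM + 1) difference from the Parental mean in each library (dots), for members and other 8q genes before and beyond 91 Mb and for 8p genes; the dash and bar are the mean and SD of 3 libraries. Before 91 Mb the IDH2R172K and IDH2R140Q libraries lie low together, beyond it the other 8q genes lie between -0.42 and -0.40 in the 3 IDH2R172K libraries, below the other 12.

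In IDH2R140Q the lower levels of the unlisted 8q genes, by their median, did not extend beyond 91 Mb. The arm was split at 91 Mb after the differences had been seen, so the split is a description with no test. Among the 62 unlisted 8q genes before 91 Mb, the median relative difference was -0.60 in IDH2R172K and -0.52 in IDH2R140Q, against -0.09 in both IDH2R140W and IDH1R132H. In IDH2R140Q 57 of the 62 lay below the median gene, and 28 were called lower and 3 higher. Among the 150 beyond 91 Mb, the median was -0.38 in IDH2R172K and 0.04 in IDH2R140Q, where 15 were called lower and 52 higher, close to the 11.1% and 33.3% of all genes. The members followed this less sharply. The 28 members before 91 Mb had medians of -0.47 in IDH2R172K and -0.46 in IDH2R140Q, and the 20 beyond it -0.71 and -0.29. IDH2R140Q minus IDH2R140W, which needs no Parental library, gave -0.54 for members before 91 Mb and -0.07 beyond it, and -0.49 and 0.01 for the other 8q genes.

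Windows of 20 consecutive protein-coding genes showed where else in the genome such shifts occurred. Of 559 windows, 11 lay on 8q, and their medians in IDH2R172K ran from -0.69 to -0.19. A median of -0.4 or less was found in 34 windows in IDH2R172K, 9 of them on 8q and the others on chromosomes 1, 2, 3, 4, 5, 7, 9, 13 and 14. The lowest window elsewhere, on chromosome 13, stood at -1.03, below any window of 8q. In IDH2R140Q 20 windows reached -0.4, of which 3 were on 8q and the rest on chromosomes 7, 10 and 20, down to -0.69. In IDH2R140W 6 windows reached it and in IDH1R132H 19, with 0 on 8q in either line. By the median over its tested protein-coding genes, chromosome 8 ranked lowest in IDH2R172K at -0.35, and chromosome 10 ranked lowest in IDH2R140Q at -0.39. Low runs of genes were therefore not particular to 8q in either line.

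**Figure D3:**
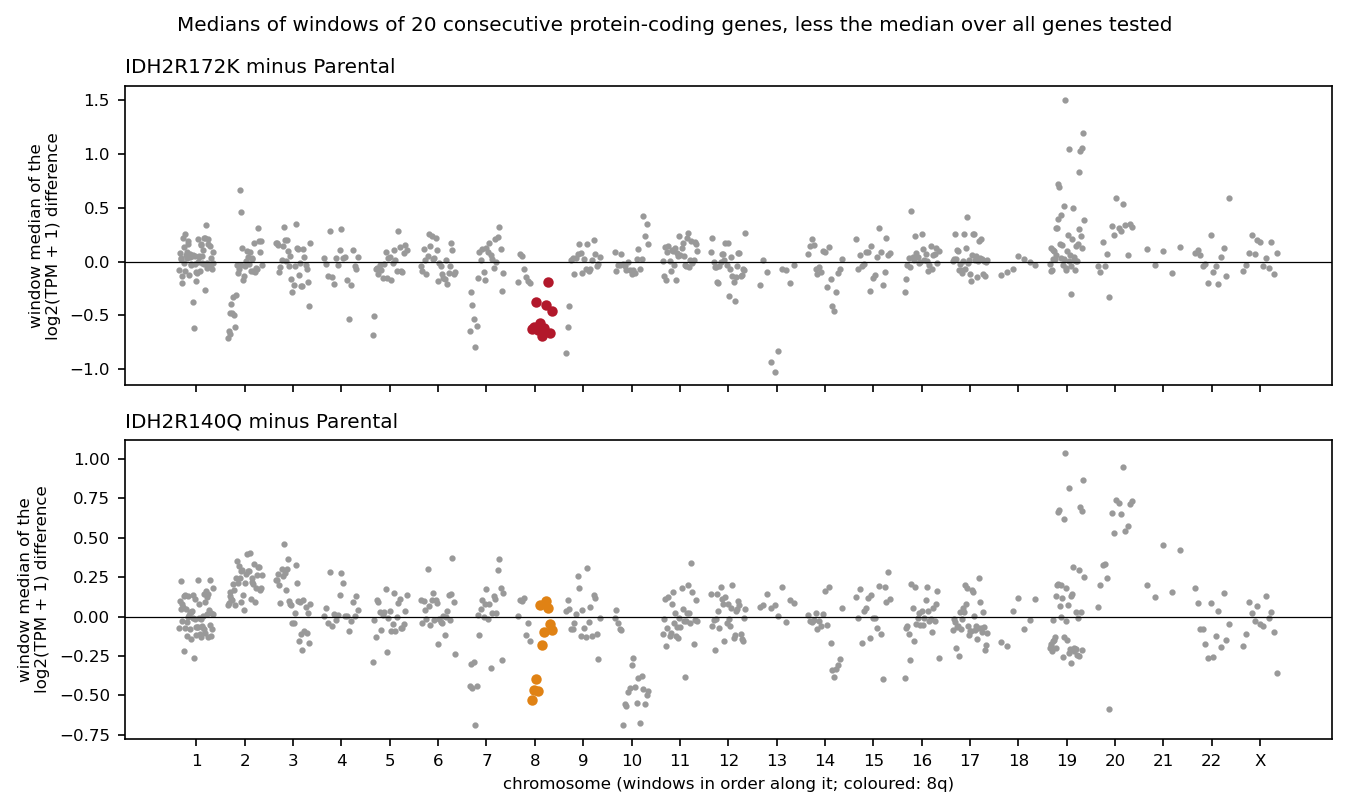
Median relative log2(TPM + 1) difference from Parental of each window of 20 consecutive protein-coding genes, by chromosome, in IDH2R172K (top) and IDH2R140Q (bottom); windows of 8q are coloured. All 11 windows of 8q lie below 0 in IDH2R172K, beside windows on chromosomes 2, 7, 9 and 13 that lie lower still, and in IDH2R140Q the 8q windows separate into a low and a near-zero set.

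MYC, a transcription factor that drives growth and cell division, and PVT1, a noncoding RNA gene beside it, went in opposite directions in IDH2R172K. In each other edited line both lay below the median gene. MYC (chromosome 8, 127735434 to 127741434) had 336, 330 and 325 TPM in IDH2R172K, 343, 342 and 335 TPM in IDH2R140Q and 335, 344 and 313 TPM in IDH2R140W. It had 432, 419 and 427 TPM in IDH1R132H and 446, 407 and 440 TPM in Parental. The 9 libraries of the IDH2 lines lay below all 6 others. MYC fell by 0.34 in IDH2R140Q (SE 0.05, limma adjusted p 0.000115) and by 0.38 in IDH2R140W (SE 0.05, adjusted p 8.27e-05), and its difference in IDH1R132H was -0.02 (adjusted p 0.829). In IDH2R172K it was -0.38, so that MYC stood at 0.767 of Parental both there and in IDH2R140W. Beyond 91 Mb the relative median in IDH2R140W was -0.27 for members and 0.02 for other 8q genes. The 8 tested genes from 125 to 130 Mb, MYC among them, had a relative median of -0.26 in that line. Their relative median was -0.42 in IDH2R172K, -0.33 in IDH2R140Q and -0.35 in IDH1R132H.

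PVT1 (127794533 to 128101253) had 105, 90.01 and 96.9 TPM in IDH2R172K, against 44.6, 50.4 and 53.2 TPM in Parental. The other edited lines lay between 37.2 and 50.8 TPM, so the IDH2R172K libraries stood apart from the other 12. The difference from Parental was 0.96 and that from the other 3 edited lines 1.09 on the log2 scale. CCDC26, an unlisted noncoding RNA gene that follows PVT1 on the chromosome and was named after its values were seen, had 26.7, 21.2 and 25.02 TPM in IDH2R172K, against 2.83, 3.68 and 7.21 TPM in Parental. CCDC26 did not exceed 3.34 TPM in any library of the other edited lines. PVT1 also had the lowest correlation of all members with the median of the rest over the 15 libraries, at r = -0.59. The median r of a member was 0.71 and the highest 0.97, in SDCBP, and 34 of 48 exceeded 0.5, as a description, since the libraries share their groups.

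Of the genes listed as MYC partners or their relatives, 5 of 8 tested rose in IDH2R172K and 0 fell, beside 25.5% of all genes called higher and 13.5% lower. In IDH2R140Q 3 rose and 1 fell, in IDH2R140W 1 rose and 0 fell, and in IDH1R132H 4 rose and 1 fell. Against the other edited lines, 2 were higher and 1 lower in IDH2R172K, beside 14.1% and 16.5% of all genes. Those that rose in IDH2R172K against Parental were MAX, the obligate partner of MYC, MXD3, MNT, MGA and MLX. MAX averaged 130 ± 2.79 TPM in IDH2R172K and 80.8 ± 9.87 TPM in Parental (SD, n = 3 each). It rose in all 4 edited lines, by 0.68 in IDH2R172K, 0.41 in IDH2R140Q, 0.58 in IDH2R140W and 0.53 in IDH1R132H (limma adjusted p 8.68e-05, 0.0039, 0.00065 and 0.000626). Of 25 tested targets of MYC in growth and nucleolar function, 7 rose and 5 fell in IDH2R172K, 10 and 6 in IDH2R140Q, 3 and 3 in IDH2R140W, and 9 and 6 in IDH1R132H. Over all genes, 25.5%, 33.3%, 13.3% and 30.1% were called higher in these lines and 13.5%, 11.1%, 10.7% and 13.7% lower. Their median relative difference lay between -0.05 and 0.00 in each line. ODC1, the first enzyme of polyamine synthesis, fell by 0.53 in IDH2R172K (limma adjusted p 1.38e-06), and CDK4, a kinase of the G1 phase, rose by 0.32 (adjusted p 4.74e-05).

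**Figure D4:**
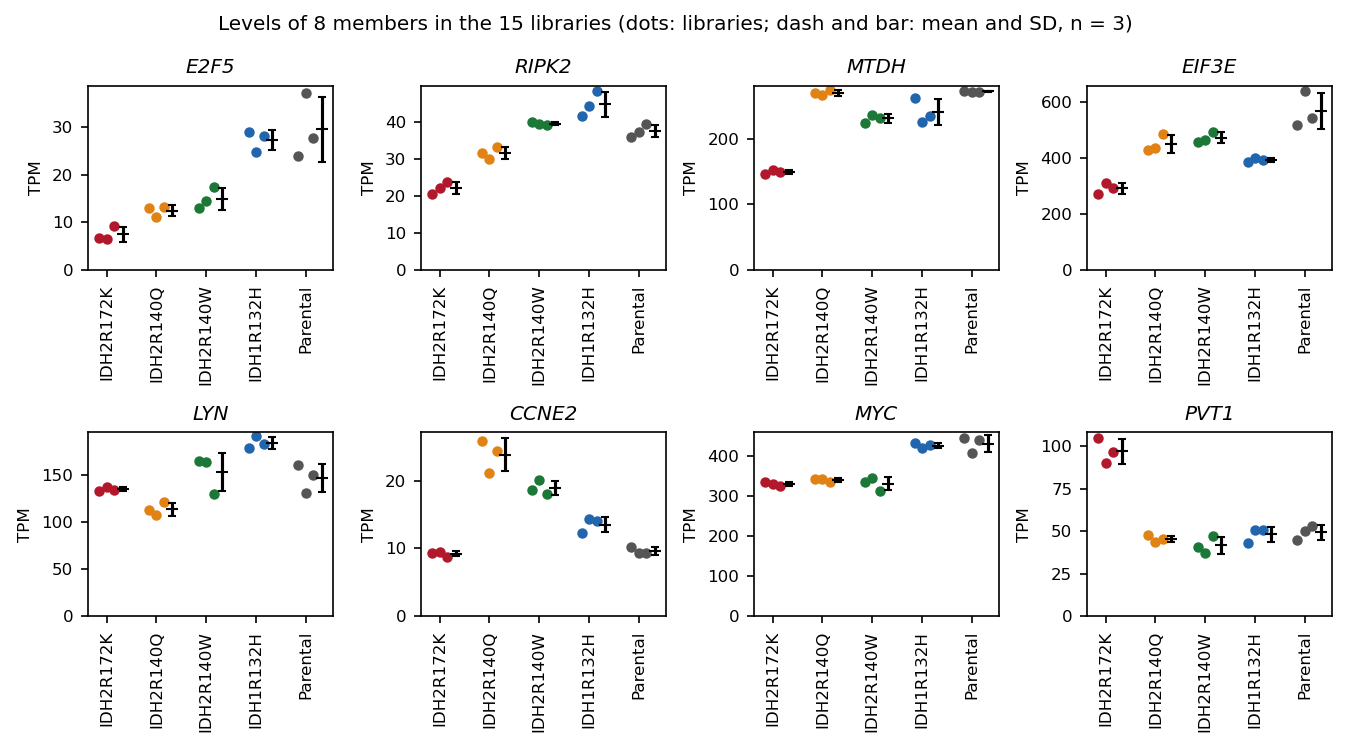
TPM of 8 members in every library (dots) with the mean and SD of 3 libraries, by line with Parental at the right; each axis starts at 0. E2F5, RIPK2, MTDH and EIF3E are lowest in IDH2R172K, MYC is low in the 3 IDH2 lines, and PVT1 is high in IDH2R172K alone among the 15 libraries.

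Among transcription factors and chromatin genes, 1 of 5 tested members was called lower in IDH2R172K, beside 13.5% of all genes. That contrast is the one on which the list was chosen. The member was E2F5, of the E2F family, which mostly represses cell cycle genes. E2F5 (85177225 to 85217158) had 6.72, 6.46 and 9.17 TPM in IDH2R172K, 13.1, 11.2 and 13.1 TPM in IDH2R140Q and 12.9, 14.6 and 17.5 TPM in IDH2R140W. It had 28.9, 24.9 and 28.2 TPM in IDH1R132H and 24.0, 37.1 and 27.6 TPM in Parental. All 9 libraries of the IDH2 lines lay below the other 6, and IDH2R172K lay below the rest. E2F5 had the largest difference of all members in IDH2R172K, at -1.85. It fell in IDH2R140Q by 1.16 (SE 0.17, limma adjusted p 7.63e-05) and in IDH2R140W by 0.92 (SE 0.17, adjusted p 0.000979), and was -0.09 in IDH1R132H (adjusted p 0.686).

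CHD7, a chromatin remodeller, averaged 16.9 ± 0.698 TPM in IDH2R172K against 22.3 ± 5.93 TPM in Parental (SD, n = 3 each), with groups that overlapped. NCOA2, a nuclear receptor coactivator, had the smallest difference of the group in IDH2R172K, at -0.15, with 7.24, 6.86 and 7.23 TPM against 12.1, 4.50 and 9.05 TPM in Parental, whose libraries spanned it. The difference of NCOA2 turned to 0.13 without Parental replicate 1. ZBTB10, a zinc finger repressor, rose in IDH1R132H by 1.06 (SE 0.24, limma adjusted p 0.00227), to 12.7 ± 1.47 TPM against 5.61 ± 1.37 TPM in Parental (SD, n = 3 each). MYBL1, a MYB relative, lay near the threshold, at 1 TPM or more in 8 libraries. RUNX1T1, known for its fusion with RUNX1 in acute myeloid leukaemia, reached 1 TPM in only 2 libraries, with a highest value of 1.36 TPM in IDH2R140W replicate 2, and was listed at 0 in all 3 Parental libraries. TRPS1, a GATA-type repressor, and CHMP4C, of the membrane-cutting ESCRT-III complex, did not exceed 0.06 TPM in any library. These 3 genes were not tested.

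Of 9 tested relatives and partners of LYN and RUNX1T1 on other chromosomes, 7 rose in IDH2R172K, 7 in IDH2R140Q, 1 in IDH2R140W and 6 in IDH1R132H, beside 25.5%, 33.3%, 13.3% and 30.1% of all genes. RUNX1, a master regulator of blood cell formation, averaged 132 ± 6.90 TPM in IDH2R172K and 39.3 ± 13.1 TPM in Parental (SD, n = 3 each), a difference of 1.78 (limma adjusted p 9.47e-05). SRC rose by 1.73 in IDH2R172K (limma adjusted p 9.16e-06).

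Of the 6 members that act in DNA replication, repair and chromosome structure, 2 were called lower in IDH2R172K, beside 13.5% of all genes. That contrast is the one on which the list was chosen. In IDH2R140Q 3 rose with 0 lower, beside 33.3% of all genes called higher there. RAD54B, a helper of homologous recombination, had 4.55, 9.62 and 6.16 TPM in IDH2R172K, against 10.1, 12.4 and 12.9 TPM in Parental, a difference of -0.76. The other member called lower in IDH2R172K was TERF1, a telomere-binding protein, at -0.39. NBN, a part of the MRN complex that senses breaks, averaged 41.8 ± 5.999 TPM in IDH2R172K and 49.1 ± 9.50 TPM in Parental (SD, n = 3 each), and its groups overlapped in every comparison with Parental. The starts of NBN and DECR1 overlap on opposite strands. The kit keeps strand, per the labels, but the sources used here do not give the strand setting of the counting.

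RAD21, a subunit of the cohesin ring that holds sister chromatids together, had 140, 136 and 137 TPM in IDH2R172K and 174, 137 and 163 TPM in Parental, with overlapping groups. In IDH2R140Q it had 211, 195 and 208 TPM and rose by 0.38 (SE 0.10, limma adjusted p 0.00625), which median-ratio scaling brought to 0.12 (adjusted p 0.134). Relative to the median gene it stood at 0.15. CCNE2, a cyclin that starts S phase, had 9.36, 9.55 and 8.80 TPM in IDH2R172K, overlapping the 10.3, 9.31 and 9.34 TPM of Parental. It had 25.9, 21.2 and 24.4 TPM in IDH2R140Q, 18.7, 20.02 and 18.1 TPM in IDH2R140W and 12.2, 14.3 and 14.04 TPM in IDH1R132H. None of these 9 libraries overlapped with Parental or IDH2R172K. CCNE2 rose by 1.22, 0.91 and 0.45 in these 3 lines (SE 0.10 each, limma adjusted p 5.01e-07, 1.7e-05 and 0.00263). RRM2B, a ribonucleotide reductase subunit induced by p53, rose by 0.91 in IDH2R140Q and by 0.78 in IDH1R132H (SE 0.16 each, limma adjusted p 0.000349 and 0.00108). It averaged 14.01 ± 1.395 TPM in IDH2R172K and 12.1 ± 2.10 TPM in Parental (SD, n = 3 each).

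Outside 8q, 3 of 8 tested cohesin genes rose in IDH2R172K, which were SMC3, STAG2 and MAU2, and 0 fell. Of all genes, 25.5% were called higher and 13.5% lower there. In IDH2R140Q 4 rose and 1 fell, beside 33.3% and 11.1% of all genes. In IDH2R140W 0 were called, beside 13.3% higher and 10.7% lower. In IDH1R132H 2 rose and 0 fell, beside 30.1% and 13.7%. SMC3, a core ring subunit beside RAD21, averaged 103 ± 5.72 TPM in IDH2R172K and 68.5 ± 4.17 TPM in Parental (SD, n = 3 each), a difference of 0.58 (limma adjusted p 0.000157). In IDH2R140Q SMC3 fell by 0.23 (limma adjusted p 0.0494).

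Among the 4 signalling members, RIPK2 and YWHAZ were called lower in IDH2R172K, beside 13.5% of all genes, in the contrast on which the list was chosen. RIPK2, a kinase that relays signals from bacterial sensors to NF-kB, had 20.6, 22.1 and 23.9 TPM in IDH2R172K, 31.7, 29.9 and 33.2 TPM in IDH2R140Q and 40.0, 39.3 and 39.2 TPM in IDH2R140W. It had 41.6, 44.5 and 48.4 TPM in IDH1R132H and 36.1, 37.4 and 39.4 TPM in Parental. The order of the lines was clear at both ends, with IDH2R172K below all and IDH1R132H above all, and only IDH2R140W overlapped Parental. RIPK2 fell by 0.24 in IDH2R140Q and rose by 0.25 in IDH1R132H (SE 0.08 each, limma adjusted p 0.0245 and 0.0242). Relative to the median gene RIPK2 stood at -0.47 in IDH2R140Q and at 0.083, about its SE, in IDH1R132H. The call in IDH2R140Q was lost without IDH2R140Q replicate 1 (adjusted p 0.0568), IDH2R140Q replicate 2 (0.0941) or Parental replicate 3 (0.0824). YWHAZ, a 14-3-3 adaptor protein, had 192, 193 and 197 TPM in IDH2R172K, below 309, 236 and 298 TPM in Parental. It was not called in the other 3 lines. Of its 5 tested 14-3-3 relatives on other chromosomes, YWHAB alone was called in IDH2R172K, with a rise of 0.59 (limma adjusted p 9.87e-08). In IDH2R140Q and in IDH1R132H 3 of the 5 rose, beside 33.3% and 30.1% of all genes. In IDH2R140W 0 were called, beside 13.3% higher and 10.7% lower.

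LYN (55879813 to 56014168), a Src-family kinase that acts beneath blood cell receptors, had 133, 137 and 134 TPM in IDH2R172K, within the 160, 130 and 150 TPM of Parental. It had 112, 107 and 121 TPM in IDH2R140Q and 178, 190 and 182 TPM in IDH1R132H. These lines lay on opposite sides of Parental without overlap, whereas IDH2R140W, at 165, 163 and 129 TPM, overlapped it. LYN fell by 0.36 in IDH2R140Q and rose by 0.33 in IDH1R132H (SE 0.09 each, limma adjusted p 0.00655 and 0.0122). Relative to the median gene these differences of LYN were -0.59 and 0.16. PAG1, an adaptor that restrains Src-family kinases, was not called in any line.

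The 7 members of RNA and protein synthesis had a median relative difference of -0.79 in IDH2R172K, with 5 called lower and 0 higher, beside 13.5% and 25.5% of all genes, in the contrast on which the list was chosen. EIF3E, a subunit of the initiation factor eIF3, had 271, 309 and 291 TPM in IDH2R172K, 426, 435 and 486 TPM in IDH2R140Q and 455, 464 and 492 TPM in IDH2R140W. It had 384, 397 and 390 TPM in IDH1R132H and 516, 637 and 542 TPM in Parental. No edited library reached the Parental range, and IDH2R172K lay below the rest. EIF3E fell by 0.33 in IDH2R140Q, 0.26 in IDH2R140W and 0.53 in IDH1R132H (SE 0.08 each, limma adjusted p 0.00395, 0.0265 and 9.89e-05). Its difference in IDH2R172K was -0.95. Of 11 eIF3 subunits encoded outside 8q, 2 fell in IDH2R172K (EIF3B and EIF3L) and 1 rose (EIF3G), beside 13.5% and 25.5% of all genes. In IDH2R140Q 5 fell and 2 rose, beside 11.1% and 33.3%, and in IDH2R140W and IDH1R132H 4 fell and 1 rose in each, beside 10.7% and 13.3% and beside 13.7% and 30.1%.

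PABPC1, which binds poly(A) tails, averaged 2460 ± 37.1 TPM in IDH2R172K, 3178 ± 153 in IDH2R140Q and 3876 ± 531 in Parental (SD, n = 3 each), and fell in IDH2R140Q by 0.28 (limma adjusted p 0.0156). It has near-identical copies elsewhere, between which reads could be split. MRPS28, of the mitochondrial ribosome, had 87.1, 90.2 and 96.9 TPM in IDH2R172K and 74.3, 76.4 and 90.2 TPM in IDH2R140Q, against 145, 197 and 160 TPM in Parental. It fell by 1.05 in IDH2R140Q (SE 0.12, limma adjusted p 9.08e-06). INTS8, of the Integrator complex, and POLR2K, a subunit shared by RNA polymerases, stood at -0.76 and -0.66 in IDH2R172K. TGS1, which caps small nuclear RNAs, had 29.7, 28.2 and 28.8 TPM in IDH2R172K, within the 37.2, 26.1 and 37.3 TPM of Parental. TRAM1, which helps proteins enter the endoplasmic reticulum, was not called in IDH2R172K against Parental. Against the other 3 edited lines TRAM1 was called lower in IDH2R172K, at -0.52. Against Parental it rose in IDH2R140W by 0.50 and in IDH1R132H by 0.42 (SE 0.11 each, limma adjusted p 0.00328 and 0.00546).

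Of the 9 tested members in membrane traffic and the lysosome, 6 were called lower in IDH2R172K and 0 higher, beside 13.5% and 25.5% of all genes, in the contrast on which the list was chosen. ATP6V1C1, a subunit of the proton pump that acidifies lysosomes, had 12.1, 16.3 and 16.0 TPM in IDH2R172K, against 40.9, 33.1 and 39.3 TPM in Parental, a difference of -1.30. It fell by 0.68 in IDH2R140W and by 0.44 in IDH1R132H (SE 0.17 each, limma adjusted p 0.00913 and 0.0457), and was -0.42 in IDH2R140Q (adjusted p 0.0578). CPNE3, a calcium-dependent membrane binder, averaged 19.8 ± 1.92 TPM in IDH2R172K and 22.0 ± 7.57 TPM in IDH2R140W, against 45.9 ± 13.4 TPM in Parental (SD, n = 3 each). Its level in Parental replicate 2 was 30.5 TPM, against 55.1 and 52.1 TPM in the other Parental libraries. SDCBP, the scaffold syntenin that helps form exosomes, had 110, 117 and 114 TPM in IDH2R172K and 136, 133 and 140 TPM in IDH2R140Q, below 170, 161 and 178 TPM in Parental. ASAP1, a GTPase activator for Arf proteins, averaged 11.6 ± 0.696 TPM in IDH2R172K and 24.1 ± 8.13 TPM in Parental (SD, n = 3 each).

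LAPTM4B, a lysosomal membrane protein, averaged 344 ± 11.1 TPM in IDH2R172K, 681 ± 10.3 in IDH1R132H and 539 ± 50.2 in Parental (SD, n = 3 each), and rose in IDH1R132H by 0.34 (limma adjusted p 0.00322). TPD52, a regulator of vesicle traffic, stood at -0.53 in IDH2R172K and rose by 0.30 in IDH2R140W (adjusted p 0.0301). TMEM67, a protein of the primary cilium, had the smallest difference of the group, with 3.22, 2.96 and 7.64 TPM in IDH2R172K and 5.34, 4.99 and 3.44 TPM in Parental. The spread within IDH2R172K covered the whole Parental range, and the sign of the difference turned when 1 library was left out. ARFGEF1, an activator of Arf proteins, and SNX16, a sorting nexin, were not called in any line.

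Of the 9 members in metabolism, mitochondria and peroxisomes, 6 were called lower in IDH2R172K and 0 higher, beside 13.5% and 25.5% of all genes, in the contrast on which the list was chosen. In IDH2R140Q 4 fell and 1 rose, beside 11.1% and 33.3%. RMDN1, a protein that binds microtubules, had 28.3, 26.8 and 31.5 TPM in IDH2R172K, 36.5, 31.0 and 41.7 TPM in IDH2R140Q and 29.6, 31.2 and 33.6 TPM in IDH2R140W. It had 28.0, 32.3 and 28.6 TPM in IDH1R132H and 52.8, 77.7 and 59.0 TPM in Parental. All 12 edited libraries lay below Parental, and the 4 lines overlapped each other. RMDN1 fell by 0.77 in IDH2R140Q, 0.97 in IDH2R140W and 1.05 in IDH1R132H (SE 0.14 each, limma adjusted p 0.000464, 0.000132 and 2.94e-05), beside -1.09 in IDH2R172K. Its end overlaps that of its neighbour WWP1 on the other strand.

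LACTB2, a mitochondrial ribonuclease, had 9.39, 9.64 and 12.7 TPM in IDH2R172K, against 18.3, 24.1 and 22.4 TPM in Parental, a difference of -0.97. The other lines were not called and averaged 18.5 to 21.6 TPM. DECR1, which breaks down unsaturated fatty acids, averaged 101 ± 0.888 TPM in IDH2R172K, 98.3 ± 2.89 in IDH2R140Q, 120 ± 11.9 in IDH1R132H and 164 ± 16.4 in Parental (SD, n = 3 each). It fell in IDH2R140Q by 0.72 and in IDH1R132H by 0.45 (SE 0.09 each, limma adjusted p 1.46e-05 and 0.000802). FABP5, a fatty acid carrier with near-identical copies, stood at -0.41 in IDH2R172K, and rose by 0.46 in IDH2R140W and 0.67 in IDH1R132H (SE 0.13 each, limma adjusted p 0.0166 and 0.000726). PEX2, of the peroxisome import machinery, and IMPA1, which makes free inositol, were low in IDH2R172K, at -0.41 and -0.28, and fell in IDH2R140Q by 0.35 and 0.48 (limma adjusted p 0.0429 and 0.00128).

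GDAP1, a mitochondrial fission factor of nerve cells, was low throughout, at 3.33, 4.42 and 4.01 TPM in IDH2R172K and 4.07, 3.56 and 3.39 TPM in Parental. GDAP1 rose in IDH2R140W by 0.61 (limma adjusted p 0.0218). It also rose in IDH2R140Q by 0.60 (limma adjusted p 0.0139), a call lost without IDH2R140Q replicate 3 (adjusted p 0.0646) and with median-ratio scaling (0.0622). OXR1, which protects against oxidative damage, fell in IDH2R140W by 0.88 (SE 0.20, limma adjusted p 0.00484), and AZIN1, an inhibitor of antizyme, was not called in a comparison with Parental.

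The 3 members of the ubiquitin system were not called in IDH2R172K against Parental. Against the other 3 edited lines, 2 of them were called lower, beside 16.5% of all genes. These were UBE2W, at -0.32, and OTUD6B, at -0.49. WWP1, a ubiquitin ligase, had between 9.82 and 13.4 TPM in IDH2R140Q, against 22.5, 15.2 and 16.9 TPM in Parental, a fall of 0.62 (SE 0.23, limma adjusted p 0.0412). This call was lost without IDH2R140Q replicate 1 (adjusted p 0.0958), IDH2R140Q replicate 3 (0.132), Parental replicate 1 (0.142) or Parental replicate 3 (0.0630). UBE2W, a conjugating enzyme for protein amino termini, averaged 6.20 ± 0.450 TPM in IDH2R172K and 5.72 ± 0.852 TPM in Parental (SD, n = 3 each), and rose in IDH2R140W by 0.47 and in IDH1R132H by 0.53 (SE 0.12 each, limma adjusted p 0.0105 and 0.00276). OTUD6B, a deubiquitinase, rose in IDH1R132H by 0.48 (SE 0.15, adjusted p 0.0191).

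Of the 3 remaining members, MTDH, also called AEG-1, a protein of the endoplasmic reticulum and nucleus often raised in tumours, had 146, 152 and 150 TPM in IDH2R172K. It had 269, 266 and 274 TPM in IDH2R140Q, 224, 236 and 232 TPM in IDH2R140W, 262, 225 and 234 TPM in IDH1R132H and 272, 272 and 272 TPM in Parental. IDH2R172K lay far below all other libraries, and IDH2R140Q overlapped Parental. The difference was -0.86 in IDH2R172K, and MTDH fell by 0.24 in IDH2R140W and 0.18 in IDH1R132H (SE 0.06 each, limma adjusted p 0.00732 and 0.0189).

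ZNF706, a small zinc finger protein, had 149, 157 and 150 TPM in IDH2R172K, 137, 149 and 170 TPM in IDH2R140Q and 191, 203 and 217 TPM in IDH2R140W. It had 149, 153 and 155 TPM in IDH1R132H and 257, 302 and 274 TPM in Parental. As with RMDN1 and EIF3E, all 12 edited libraries lay below Parental. ZNF706 fell by 0.86 in IDH2R140Q, 0.44 in IDH2R140W and 0.85 in IDH1R132H (SE 0.08 each, limma adjusted p 1.64e-06, 0.00113 and 1.5e-06). ZC2HC1A, of no established function, lay just inside the threshold, with 1.13, 1.34 and 1.00 TPM in IDH2R140Q, no other library above 0.56 TPM and all 3 Parental libraries listed at 0. It passed the filter through IDH2R140Q alone, and its log2 difference depends on the pseudocount.

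**Figure D5:**
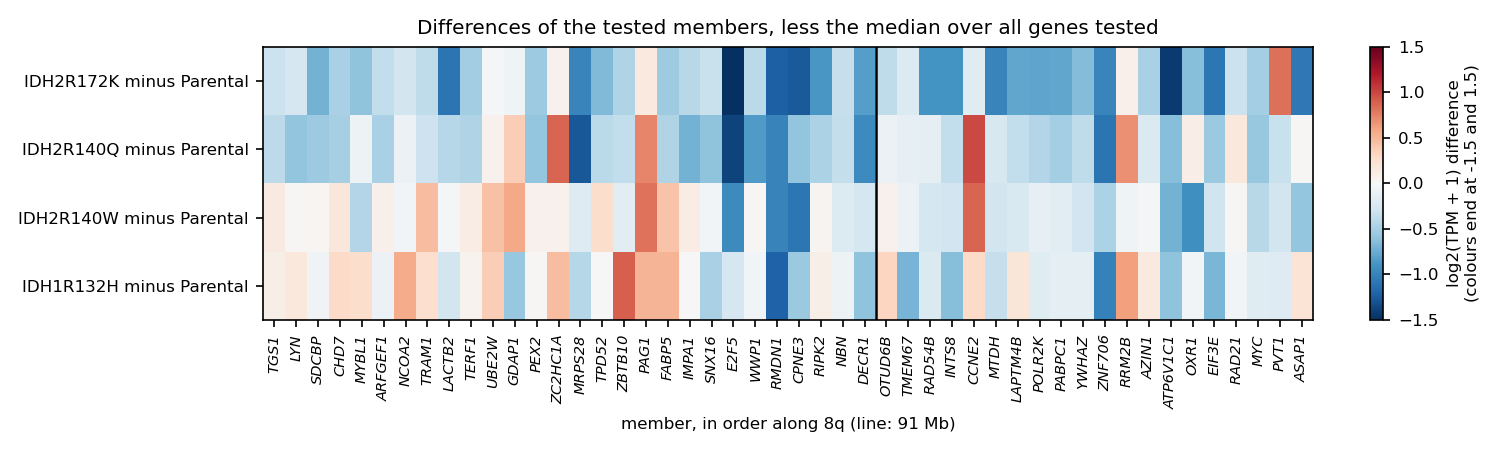
Relative log2(TPM + 1) difference from Parental (colour, ending at -1.5 and 1.5) of the 48 tested members in order along 8q, one row per edited line; the vertical line marks 91 Mb. The IDH2R172K row is blue almost throughout with PVT1 as the red exception, and the IDH2R140Q row is bluest left of the line. Several members are blue in all 4 rows, among them RMDN1, ZNF706, CPNE3, ATP6V1C1, DECR1 and EIF3E.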

How the data were processed

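Libraries of poly(A) RNA from 15 TF-1 samples were grouped by genotype label into 5 groups of 3. The deposited values are TPM with gene symbols as row names. Per the submitters' processing notes, STAR 2.7.3, HTSeq, RSEM and DESeq2 were used with hg38, with no role named. TPM keeps no read number, so depth and its precision are unknown. The 63568 rows were summed by symbol, with 6 ambiguous date-like rows left out.

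Genes reaching 1 TPM in 3 or more libraries were fitted on log2(TPM + 1), which understates changes of low genes, in limma 3.58.1 (R 4.3.3) with all 15 libraries, group means and a trend of variance on level. Adjustment was by Benjamini-Hochberg over 14881 genes. The procedure was tested on simulated data. GENCODE 29, of the same build, placed 12532 tested genes, with the arms divided at 45 Mb. The members, partner lists and tests were chosen with earlier results of these data known. The genes named are a fixed few, the largest and smallest difference in each role group, and other members by their means or differences. Same-numbered libraries did not deviate together, so numbers do not pair them.

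Alternatives were a pseudocount of 0.1, a minimum of 5 TPM or none, median-ratio scaling, quantile normalisation, single-row symbols, no variance trend, the compared libraries alone, a 2-fold minimum, a replicate block and each library left out. Leaving out IDH2R140W replicate 3 with Parental replicate 2, and the 91 Mb split, were added after the data were seen.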

Additional observations from a re-analysis of the deposited data

Results flagged for a closer look

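Of the medians along the arm, 4 differed between lines because all 3 libraries of one line lay below the Parental mean and all 3 of the other above it, which was not tested. The values here are differences between lines in the mean of the 3 library medians, so they can depart slightly from the medians over genes given above. Members before 91 Mb differed by -0.54 in IDH2R172K from IDH2R140W and by -0.55 in IDH2R140Q from IDH2R140W. Other 8q genes beyond 91 Mb stood lower in IDH2R172K than in IDH2R140Q by -0.44 and than in IDH2R140W by -0.45.

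For LYN and RIPK2 the effects in 2 lines had opposite signs and the lines differed from each other. LYN differed by -0.69 between IDH2R140Q and IDH1R132H (limma adjusted p 8.47e-05). RIPK2 differed by -0.49 between IDH2R140Q and IDH1R132H (limma adjusted p 0.000402) and by -0.98 between IDH2R172K and IDH1R132H, the last as a description. Relative to the median gene, LYN stood at -0.59 in IDH2R140Q and 0.16 in IDH1R132H, and RIPK2 at -0.47 and 0.083, so the rises in IDH1R132H are smaller on that scale than the differences from Parental of 0.33 and 0.25.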

How the results depend on the processing

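Values here are minus Parental, and medians are relative, unless stated. The cause of each shift was not tested beyond what a setting itself changes. The share of all genes called also moves with the setting, as from 11.1% to 20.6% lower in IDH2R140Q with median-ratio scaling. Counts of members for which no such share is given above show only how far the calls moved, and are not read against a background. A 2-fold minimum left 4 members lower and 0 higher in IDH2R172K, 2 and 2 in IDH2R140Q, 1 and 0 in IDH2R140W, 1 and 1 in IDH1R132H, and 1 lower against the other edited lines. A pseudocount of 0.1 gave IDH2R172K medians of -0.57 (members), -0.55 (other 8q), -0.68 (other 8q before 91 Mb) and -0.46 (beyond), IDH2R140Q medians of -0.18 (other 8q) and -0.64 (before 91 Mb), and -0.44 for other 8q against the edited lines. A minimum of 5 TPM gave -0.57 (other 8q), -0.11 (8p) and -0.50 (other 8q beyond 91 Mb) in IDH2R172K, -0.25, -0.63 (before) and -0.019 (beyond) for other 8q in IDH2R140Q, -0.10 for other 8q in IDH1R132H, and -0.44 for other 8q against the edited lines. With no minimum, genes at 0 in most libraries enter, and medians move towards 0. In IDH2R172K they were -0.38 (members), -0.32 (before), -0.51 (beyond), 0 (other 8q), 0 (before), -0.035 (beyond) and 0 (8p). In IDH2R140Q they were -0.22 (members), -0.29 (before), -0.069 (beyond), -0.017 (other 8q), -0.067 (before) and 0.021 (beyond). In IDH1R132H they were 0.12 (members), 0 (other 8q) and 0.020 (8p), and against the edited lines -0.077 (other 8q) and -0.0009 (8p). Median-ratio scaling gave 33 members lower, 3 higher and 73 other 8q genes lower in IDH2R140Q, 14 and 59 lower in IDH1R132H, and -0.40 for other 8q beyond 91 Mb in IDH2R172K. Quantile normalisation gave 26 members lower in IDH2R140Q and 11 in IDH1R132H, with IDH2R172K medians of -0.64 (members beyond 91 Mb) and -0.42 (other 8q beyond), and IDH2R140Q medians of -0.34 (members), -0.17 (members beyond) and 0.0022 (other 8q beyond). Single-row symbols gave -0.17 for other 8q in IDH2R140Q. Fitting the compared libraries alone gave 5 members lower, 1 higher and 6 other 8q genes lower in IDH2R140W.

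Same-numbered libraries did not deviate together, with 30 correlations between -0.28 and 0.22, and the replicate block gave 24 members lower and 1 higher in IDH2R172K, 14 and 5 in IDH2R140Q, 9 and 6 in IDH2R140W, 6 and 11 in IDH1R132H, and 30 and 1 against the edited lines. Leaving out 1 library gave 21 to 30 members lower in IDH2R172K, 10 to 18 lower in IDH2R140Q, 8 to 12 lower and 2 to 6 higher in IDH2R140W, and 5 to 8 lower in IDH1R132H. Without both doubted libraries, 22 fell in IDH2R140Q and 15 in IDH2R140W. In IDH2R172K the leave-one-out medians ran from -0.58 to -0.52 (members), -0.56 to -0.38 (before 91 Mb), -0.76 to -0.67 (beyond), -0.49 to -0.45 (other 8q), -0.43 to -0.38 (other 8q beyond) and -0.094 to -0.022 (8p). In IDH2R140Q they ran from -0.44 to -0.36 (members), -0.17 to -0.13 (other 8q) and 0.015 to 0.052 (other 8q beyond). They ran from -0.14 to 0.020 for members in IDH2R140W and from -0.085 to -0.034 for other 8q and -0.046 to 0.028 for 8p in IDH1R132H.

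Signs of small, uncalled differences turned. In IDH2R172K GDAP1 was -0.057 with median-ratio and -0.12 with quantile scaling, and UBE2W -0.034 and -0.084. In IDH2R140Q RAD54B was -0.17 and -0.23, TMEM67 -0.11 and -0.19, NCOA2 -0.097 and -0.16, and UBE2W -0.016 with quantile scaling. With 1 library left out, IDH2R172K differences ran from -0.43 to 0.13 for TMEM67, -0.0022 to 0.16 for GDAP1, 0 to 0.30 for ZC2HC1A, which the pseudocount sets since Parental is at 0, and -0.50 to 0.13 for NCOA2. In IDH2R140Q they ran from -0.017 to 0.15 for RAD54B, -0.20 to 0.35 for TMEM67 and -0.22 to 0.41 for NCOA2. Depth is unknown for TPM, so what it limits cannot be stated.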
